A study of Homo sapiens with 12 samples.

Results

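The mitochondrial ribosomal protein genes were defined as every probe whose gene symbol in the scanner tables begins with MRPL or MRPS followed by a digit, a rule that uses no measured value. It found 114 probes for 77 symbols, out of 48800 probes for 25158 symbols on the array. Of these, 105 probes and 76 genes had a detectable signal and entered the tests, among 11183 genes tested in all. The remaining symbol, MRPL42P5, names a pseudogene whose probe was detected on no array, and it was not tested. All 76 genes tested were detected on all 12 arrays, so none entered the tests through 1 group alone.

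The cells were labelled Reh, an acute lymphoblastic leukemia line of the B-cell precursor type, and each group had 3 arrays from independent samples. In the first group the cells had been given Ara-C for 48 h in the presence of HS-5 stromal cells (HS5 here, as in the sample titles), in the second Ara-C for 48 h in the presence of stromal cells called HS, and in the third Ara-C for 48 h without stroma. The fourth group had neither Ara-C nor stroma, and no time is given for it. Ara-C, or cytarabine, is a nucleoside analogue that blocks DNA synthesis. HS-5 is a stromal line derived from human bone marrow. The labels say no more about HS and name no Ara-C dose. Stroma was always combined with Ara-C.

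Mitochondrial ribosomes translate the small set of proteins encoded by mitochondrial DNA, all of them subunits of the respiratory chain or of the ATP synthase. The small subunit (mostly MRPS proteins) binds the mRNA and decodes it, and the large subunit (mostly MRPL proteins) joins the amino acids. Every protein of both subunits is encoded in the nucleus and imported, and some have a counterpart in bacterial ribosomes while others are found only in mitochondria.

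An array detected between 13064 and 14898 probes (detection p under 0.01), with median raw signals of 65.4 to 71.7. All 12 arrays lay on 1 chip, and the 3 arrays of a group lay next to each other on it, so position on the chip and group cannot be told apart. The B-lineage genes CD79A, CD79B and DNTT were detected in every group, but PAX5, VPREB1, CD22 and BLNK were detected on no array. MPO, CTSG, PRTN3 and AZU1, which mark granulocyte precursors, were detected on every array, which goes against the labelled cell type. Of 28 stromal markers 17 were detected on no array, among them COL1A1, COL1A2, COL3A1, FN1, DCN, LUM and THY1. The summed intensity of the stromal list ran from 24687 to 28225 with Ara-C and HS5, from 14730 to 17367 with Ara-C and HS, from 25299 to 28174 with Ara-C alone and from 11956 to 13989 in untreated cells, and VIM and LGALS1 made up 80.8% to 91.6% of it on every array. That of 6 macrophage markers ran from 4686 to 4818, from 3131 to 3724, from 4067 to 4533 and from 1642 to 1824 in the same order, with CD163 and MARCO detected on no array. The sum of 15 B-cell precursor markers, 4 of them detected on no array, ran from 3165 to 3664 with Ara-C and HS5, from 6840 to 7046 with Ara-C and HS, from 4153 to 4409 with Ara-C alone and from 6821 to 7266 in untreated cells. That of 8 granulocyte precursor markers, 7 of them detected on all arrays of every group, ran from 38225 to 41080, from 47455 to 50270, from 40910 to 44848 and from 55729 to 61993 in the same order. Each of the 4 sums differed between some of the groups compared below, but not between all of them. The stromal and granulocyte ranges overlapped between Ara-C with HS5 and Ara-C alone. Those of the B-cell list overlapped between Ara-C with HS and untreated cells. The part of these sums in the results was not tested.

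Promoter sequence was available from RefSeq (GRCh38.p14) for 68 of the 77 members, 1 of them, MRPS36, under the newer symbol KGD4. That symbol no longer names a ribosomal protein, and MRPS36 is counted as a member and as a small-subunit gene by its array symbol alone. The 250 bases before the gene start are shown for the 3 genes that rose most with Ara-C and for the 3 of those in the table that fell most, since these members carry the largest changes in opposite directions. They are MRPS6 at chr21:34073328-34073577 (plus strand), MRPL33 at chr2:27771469-27771718 (plus), MRPL52 at chr14:22829637-22829886 (plus), MRPS34 at chr16:1773135-1773384 (minus), MRPS27 at chr5:72320241-72320490 (minus) and MRPL24 at chr1:156741089-156741338 (minus). Each is written 5′ to 3′ along its gene, and capitals mark a match, on either strand, to one of the motifs listed after the sequences.
MRPS6: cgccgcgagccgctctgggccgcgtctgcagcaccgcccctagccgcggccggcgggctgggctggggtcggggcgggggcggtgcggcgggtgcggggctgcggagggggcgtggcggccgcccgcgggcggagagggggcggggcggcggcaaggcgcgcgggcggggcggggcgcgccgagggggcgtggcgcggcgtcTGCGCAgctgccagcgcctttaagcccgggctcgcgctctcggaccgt
MRPL33: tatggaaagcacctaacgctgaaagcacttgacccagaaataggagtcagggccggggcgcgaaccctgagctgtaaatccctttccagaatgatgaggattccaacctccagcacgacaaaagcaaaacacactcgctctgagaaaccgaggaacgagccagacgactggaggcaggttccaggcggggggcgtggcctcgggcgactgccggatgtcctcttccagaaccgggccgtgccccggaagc
MRPL52: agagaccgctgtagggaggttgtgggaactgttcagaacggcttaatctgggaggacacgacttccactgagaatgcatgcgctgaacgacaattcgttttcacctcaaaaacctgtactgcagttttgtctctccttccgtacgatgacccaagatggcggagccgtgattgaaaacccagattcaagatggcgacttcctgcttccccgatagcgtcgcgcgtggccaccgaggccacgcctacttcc
MRPS34: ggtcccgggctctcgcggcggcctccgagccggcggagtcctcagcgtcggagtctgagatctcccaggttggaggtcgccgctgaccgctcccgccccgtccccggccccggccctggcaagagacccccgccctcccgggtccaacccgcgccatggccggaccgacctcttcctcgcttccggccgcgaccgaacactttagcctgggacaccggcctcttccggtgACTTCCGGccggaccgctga
MRPS27: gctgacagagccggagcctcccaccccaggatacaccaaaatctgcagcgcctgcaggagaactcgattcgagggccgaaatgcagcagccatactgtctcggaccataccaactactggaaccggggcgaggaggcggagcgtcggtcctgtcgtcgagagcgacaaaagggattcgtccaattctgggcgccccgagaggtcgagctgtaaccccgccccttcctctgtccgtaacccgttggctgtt
MRPL24: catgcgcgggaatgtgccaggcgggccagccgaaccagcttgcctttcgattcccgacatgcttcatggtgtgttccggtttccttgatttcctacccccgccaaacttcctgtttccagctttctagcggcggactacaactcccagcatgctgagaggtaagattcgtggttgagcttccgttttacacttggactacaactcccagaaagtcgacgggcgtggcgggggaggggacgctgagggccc

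The motifs searched in these windows, on both strands, were those of factors known to act on nuclear genes for mitochondrial proteins: the full NRF1 palindrome, the shorter NRF1 word TGCGCA, which can overlap the ends of the palindrome, CCGGAAGT for the ETS family that includes GABP, and the E-box CACGTG bound by MYC with MAX. The NRF1 palindrome stood in 1 of the 68 promoters (1.47%), that of MRPL17, against 1.13% of all 27305 promoters in the table and 2.11% of the 6887 promoters of genes tested here. TGCGCA stood in 12 of 68 (17.6%), against 7.05% of all promoters and 12.1% of those of tested genes. The ETS word stood in 9 of 68 (13.2%), against 3.64% and 7.52%, and the E-box in 7 of 68 (10.3%), against 6.49% and 9.42%. Among the members that fell with Ara-C, 5 of 33 had the ETS word and 5 of 33 had TGCGCA, and among those not called, 4 of 30 and 6 of 30 had them. Of the 6 promoters printed, that of MRPS6 held TGCGCA, that of MRPS34 held the ETS word, and the other 4 held none of these motifs. A match describes the letters of the window and shows no binding.

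The first comparison asked how Ara-C without stroma changed these genes. With Ara-C alone, 36 of the 76 genes fell and 5 rose relative to untreated cells (limma, adjusted p under 0.05 over all genes tested). These are 47.4% and 6.58% of the ribosomal genes, whereas 26.3% of all genes tested were called lower and 25.5% higher. Their median log2 fold change was -0.23, beside -0.03 over all genes, and 54 of the 76 changes lay below 0. The 3 arrays with Ara-C lay entirely below the 3 untreated ones for 39 of the genes (51.3%, against 31% of all genes) and entirely above for 10 (13.2%, against 28.9%). The changes were mostly small, and MRPS6 alone passed 2-fold among the called members, each read on its brightest probe. Another probe of MRPL33 (log2 fold change 1.16, adjusted p = 4.29e-06) and one of MRPL4 (-1.03, adjusted p = 1.34e-06) also passed it. A further MRPL4 probe gave 0.20 and was not called (adjusted p = 0.481). Since each array measured the pooled RNA of many cells, fewer cells of a kind and less RNA per cell cannot be told apart.

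How many members were called depended on the scaling between arrays. With the arrays shifted to a common median in place of quantile normalization, the median over all genes stood at 0.19, with 4067 genes called higher and 1259 lower with Ara-C. The common median was that of all 48800 probes on the array, of which only 14939 passed the detection filter. It therefore rests largely on probes without a detectable signal. The ribosomal genes then gave 13 lower and 15 higher calls, with a median of -0.05. Relative to the median of all genes, their median was -0.23 under that scaling and -0.20 under quantile normalization, with 54 and 53 of the 76 genes below the all-gene median. The 13 genes called lower under both scalings were MRPL10, MRPL12, MRPL23, MRPL24, MRPL36, MRPL38, MRPL39, MRPL54, MRPS2, MRPS27, MRPS30, MRPS34 and MRPS35. All 5 rises were also called under both, and no member was called in opposite directions.

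**Figure D1:**
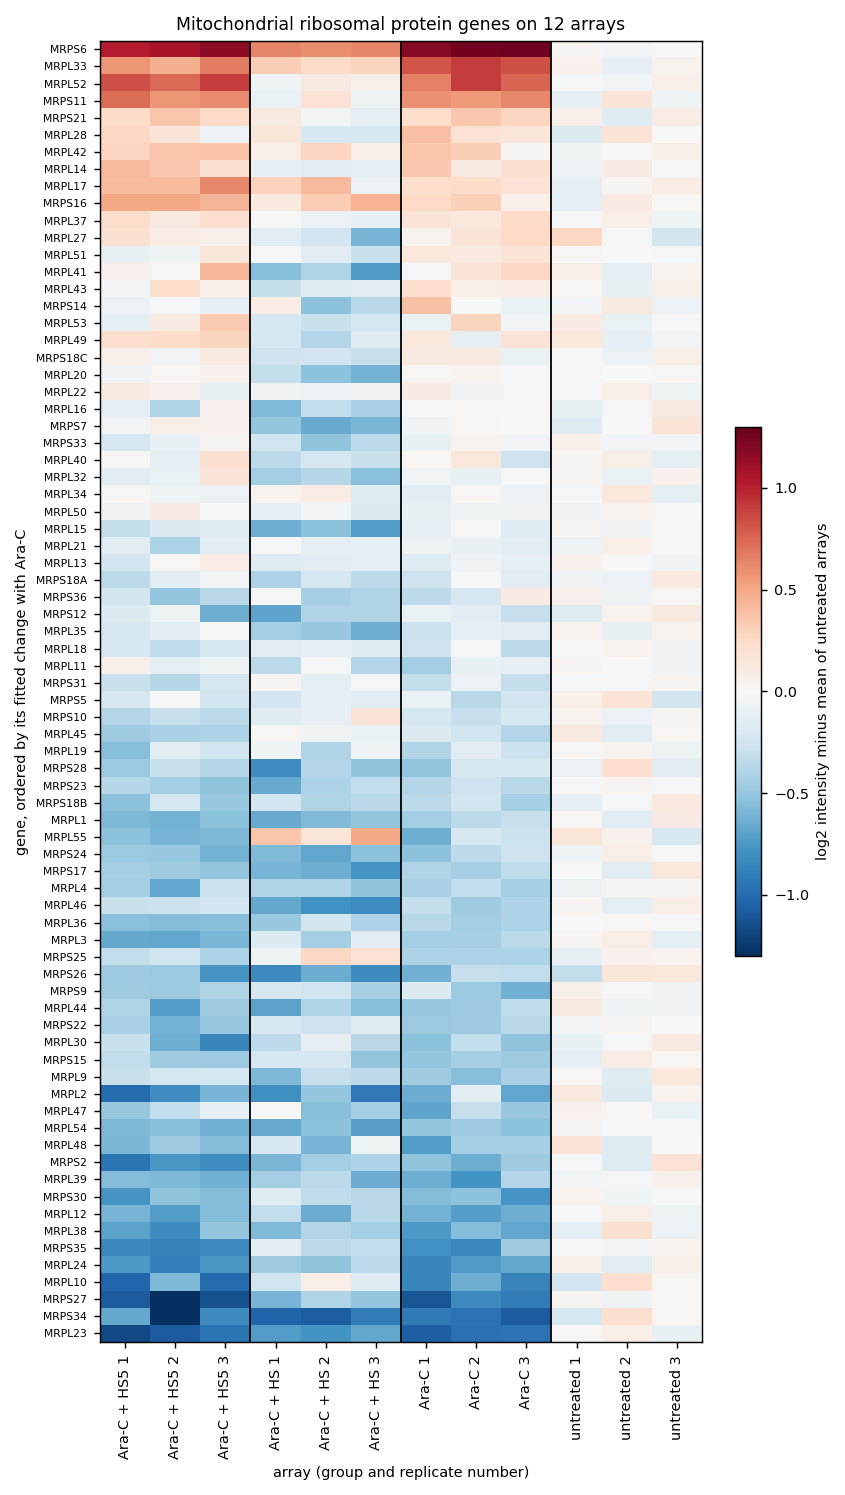
Each row is 1 of the 76 genes tested and each column 1 of the 12 arrays. Colour gives the normalized log2 intensity minus the mean of the 3 untreated arrays, and rows run from the largest rise to the largest fall with Ara-C alone. The top rows, MRPS6 to MRPS11, are red on all Ara-C arrays without stroma and with HS5, and the bottom rows, down to MRPL23, are blue there. The HS arrays are paler in many of these rows. Under a common-median scaling 15 genes, not 5, were called higher with Ara-C and 13, not 36, lower. Over all genes 4067 were then called higher and 1259 lower.

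Of the genes that rose with Ara-C, MRPS6 changed most; it encodes a small-subunit protein with a bacterial counterpart. Its normalized log2 intensity was 13.00, 13.07 and 13.07 with Ara-C alone, against 11.85, 11.77 and 11.81 in untreated cells. The groups lay far apart, and the log2 fold change was 1.24 ± 0.08 (SE; 2.36-fold, adjusted p = 4.36e-08). MRPS11, which belongs to the platform of the small subunit, stood at 10.88, 10.83 and 10.91 with Ara-C against 10.18, 10.45 and 10.23 without, a log2 fold change of 0.59 ± 0.10 (adjusted p = 0.000327). Its groups did not overlap either. MRPS21, also of the small subunit, averaged 11.46 ± 0.06 with Ara-C and 11.17 ± 0.14 in untreated cells (SD, n = 3 each), a log2 fold change of 0.29 ± 0.10 (adjusted p = 0.0245). That call was lost when untreated array 2, Ara-C array 2 or Ara-C array 3 was left out (adjusted p up to 0.113), and the other MRPS21 probe gave -0.21 (adjusted p = 0.189).

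In the large subunit, MRPL33 and MRPL52 rose. MRPL33, a small protein kept from the bacterial ribosome, stood at 12.59, 12.68 and 12.60 with Ara-C alone, against 11.83, 11.67 and 11.82 in untreated cells, a log2 fold change of 0.85 ± 0.09 (1.81-fold, adjusted p = 3.5e-06). MRPL52, which has no bacterial counterpart, stood at 10.18, 10.43 and 10.28, against 9.49 to 9.59 over the untreated arrays, a log2 fold change of 0.77 ± 0.09 (1.71-fold, adjusted p = 1.64e-05). Neither gene's groups overlapped. Each of these genes had another probe on the array, which gave a log2 fold change of 1.16 for MRPL33 and of 0.74 for MRPL52, and the other MRPS11 probe gave 0.54, all called higher.

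The genes that fell most came from both subunits. MRPL23, a large-subunit protein next to the exit of the peptide tunnel, stood at 10.04, 10.14 and 10.14 with Ara-C alone, against 11.11, 11.18 and 11.01 in untreated cells, 1.99-fold lower with Ara-C (adjusted p = 1.17e-06). Its neighbour MRPL24 stood at 10.29, 10.40 and 10.48, against 11.22, 10.99 and 11.20, and fell by 0.75 ± 0.10 (adjusted p = 2.99e-05). Ara-C arrays lay well below the untreated ones for both genes. MRPS34, a small-subunit protein found only in mitochondrial ribosomes, stood at 6.76, 6.72 and 6.60, against 7.45, 7.88 and 7.70, a log2 fold change of -0.98 ± 0.15 (1.98-fold lower, adjusted p = 0.000146). MRPS27, a small-subunit protein with pentatricopeptide repeats, stood at 9.99, 10.26 and 10.18, against 11.13, 11.04 and 11.12, a log2 fold change of -0.95 ± 0.10 (adjusted p = 4.77e-06). These pairs of groups did not overlap either, and the other probes of MRPL24 and MRPS27 gave -0.90 and -0.80, both called lower.

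The stalk of the large subunit, which draws in translation factors, is built from MRPL10 and MRPL12 next to MRPL11. MRPL10 stood at 8.18, 8.39 and 8.15 with Ara-C alone, against 8.78, 9.24 and 9.05 in untreated cells, a log2 fold change of -0.78 ± 0.15 (adjusted p = 0.000715). MRPL12, which also binds the mitochondrial RNA polymerase, stood at 9.25, 9.16 and 9.24, against 9.85, 9.96 and 9.80, a log2 fold change of -0.65 ± 0.10 (adjusted p = 0.000125). Both fell with no overlap between groups, whereas MRPL11 gave -0.22 ± 0.12 (adjusted p = 0.146). MRPL1, of the mobile stalk on the other side of the subunit, stood at 9.56, 9.65 and 9.70 with Ara-C, against 10.03, 9.87 and 10.11 in untreated cells, a log2 fold change of -0.37 ± 0.09 (adjusted p = 0.00378).

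Among the other large-subunit genes named by the rule, MRPL38, of the central protuberance, averaged 9.02 ± 0.09 with Ara-C alone and 9.68 ± 0.18 in untreated cells and fell by 0.66 ± 0.11 (adjusted p = 0.000322). MRPS30, which despite its name sits in the large subunit, averaged 11.31 ± 0.13 and 11.93 ± 0.05 and fell by 0.62 ± 0.10 (adjusted p = 0.0002). MRPL3, near the peptidyl transferase centre, and MRPL44, whose fold resembles a ribonuclease, fell by 0.41 ± 0.10 and 0.43 ± 0.11 (adjusted p = 0.00347 and 0.00565). Mutations in both genes are known to cause cardiomyopathy. MRPL41, reported to bind BCL2, gave 0.14 ± 0.13 (adjusted p = 0.381). With the arrays shifted to a common median, the calls of MRPL1, MRPL3 and MRPL44 were lost (adjusted p = 0.288, 0.108 and 0.116), while MRPL41 was called higher (0.33, adjusted p = 0.0455).

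Of the small-subunit genes, MRPS35, another protein specific to mitochondria, stood at 11.04, 10.98 and 11.36 with Ara-C alone, against 11.81, 11.79 and 11.87 in untreated cells, and fell by 0.70 ± 0.10 (adjusted p = 0.000104). Ara-C array 3 was nearest to the untreated arrays without reaching them. MRPS22, mutated in a combined respiratory chain deficiency, fell by 0.44 ± 0.08 (adjusted p = 0.000747), and MRPS18B fell by 0.34 ± 0.10 (adjusted p = 0.0146). MRPS12, a protein of the decoding site, gave -0.18 ± 0.14 (adjusted p = 0.323) and MRPS16 gave 0.21 ± 0.11 (adjusted p = 0.107). Under the common-median scaling MRPS22 and MRPS18B were not called (adjusted p = 0.0534 and 0.414) and MRPS16 was called higher (0.39, adjusted p = 0.0194). The MRPS18B call was also lost without untreated array 3 or Ara-C array 3 (adjusted p up to 0.0677), and its other probe gave -0.27 (adjusted p = 0.1).

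**Figure D2:**
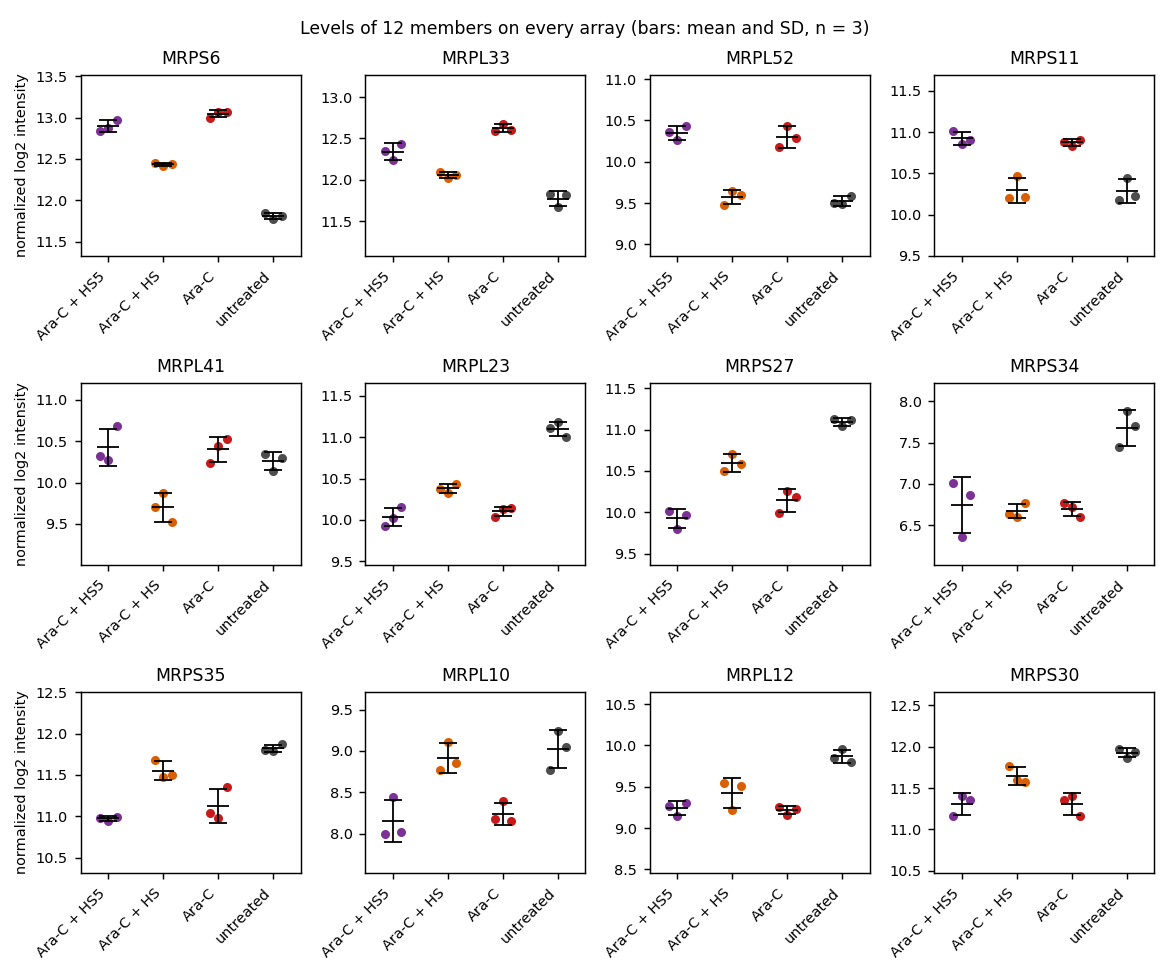
Normalized log2 intensity of 12 of the genes on every array, with 1 panel per gene and groups in the order Ara-C with HS5, Ara-C with HS, Ara-C alone and untreated. Points are arrays and bars show the mean and SD of 3 arrays. In MRPS6 the HS arrays (12.42 to 12.45) lie between those with Ara-C alone and the untreated ones, and in MRPS34 all 3 Ara-C groups lie below the untreated arrays.

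Both subunits held genes of each kind. In the small subunit 15 of 27 genes fell and 3 rose with Ara-C alone, with a median log2 fold change of -0.31, and in the large subunit 21 of 49 fell and 2 rose, with a median of -0.18. Of the 46 genes with a bacterial counterpart 19 fell and 4 rose (median -0.19), and of the 30 without one 17 fell and 1 rose (median -0.32). These counts stand beside 26.3% lower and 25.5% higher over all genes, and the differences between the classes were not tested.

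The other genes needed for mitochondrial translation were read from lists of known components. Their counts with Ara-C alone stand beside 26.3% lower and 25.5% higher over all genes tested. Of 7 tested proteins of the mitochondrial ribosome or bound to it that carry other names, 3 fell with Ara-C alone and none rose: the membrane insertase OXA1L by 0.66 ± 0.09, the peptidyl-tRNA hydrolase ICT1 by 0.63 ± 0.11 and the small-subunit GTPase DAP3 by 0.46 ± 0.08 (adjusted p = 7.1e-05, 0.000457 and 0.000389). Of 17 translation and tRNA-modifying factors 10 fell and 1 rose. The recycling factor MRRF fell by 1.25 ± 0.09 (adjusted p = 9.77e-08), the elongation factor TUFM by 0.81 ± 0.11 (adjusted p = 3.58e-05) and GFM1, which moves the ribosome along, by 0.56 ± 0.09 (adjusted p = 0.000124). The factor that rose was MTFMT, which formylates the initiator tRNA (0.35 ± 0.09, adjusted p = 0.00388).

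Enzymes that charge mitochondrial tRNAs fell in 15 of 21 cases and rose in none, with a median log2 fold change of -0.51. CARS2 (cysteine) and EARS2 (glutamate) both gave -0.98 (adjusted p = 1.45e-06 and 2.91e-06), and MARS2 (methionine) gave -0.82 (adjusted p = 1.07e-05). Of 24 factors that assemble the ribosome or modify its RNA, 15 fell and 2 rose. The pseudouridine synthase RPUSD4 fell by 0.80 ± 0.11 (adjusted p = 3.87e-05), the rRNA methyltransferase TFB1M by 0.79 ± 0.10 (adjusted p = 3.43e-05) and METT11D1 by 0.56 ± 0.09 (adjusted p = 0.000165).

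Of 14 genes that copy or transcribe mitochondrial DNA or process its RNA, 7 fell and none rose, with the polymerase subunit POLG2 at -1.34 ± 0.13, the mitochondrial RNA polymerase POLRMT at -0.87 ± 0.11 and the transcription factor TFB2M at -0.69 ± 0.09 (adjusted p = 2.22e-06, 3.63e-05 and 4.39e-05). Of 9 nuclear regulators of mitochondrial genes 7 fell and none rose, with a median of -0.76, led by MYC at -1.36 ± 0.11, the coactivator PPRC1 at -0.93 ± 0.09 and the nuclear receptor ESRRA at -0.76 ± 0.10 (adjusted p = 4.05e-07, 2.46e-06 and 5.07e-05). Cytosolic ribosomal proteins were lower in 22 of 84 cases (26.2%), near the 26.3% of all genes. They were higher in 3 (3.57%, against 25.5% of all genes), with a median of -0.09 beside -0.03. Among them RPS7 fell by 0.97 ± 0.08 and RPL22 by 0.74 ± 0.10, and RPS27L, a p53 target, rose by 0.66 ± 0.07 (adjusted p = 7.01e-07, 6.01e-05 and 8.98e-06).

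**Figure D3:**
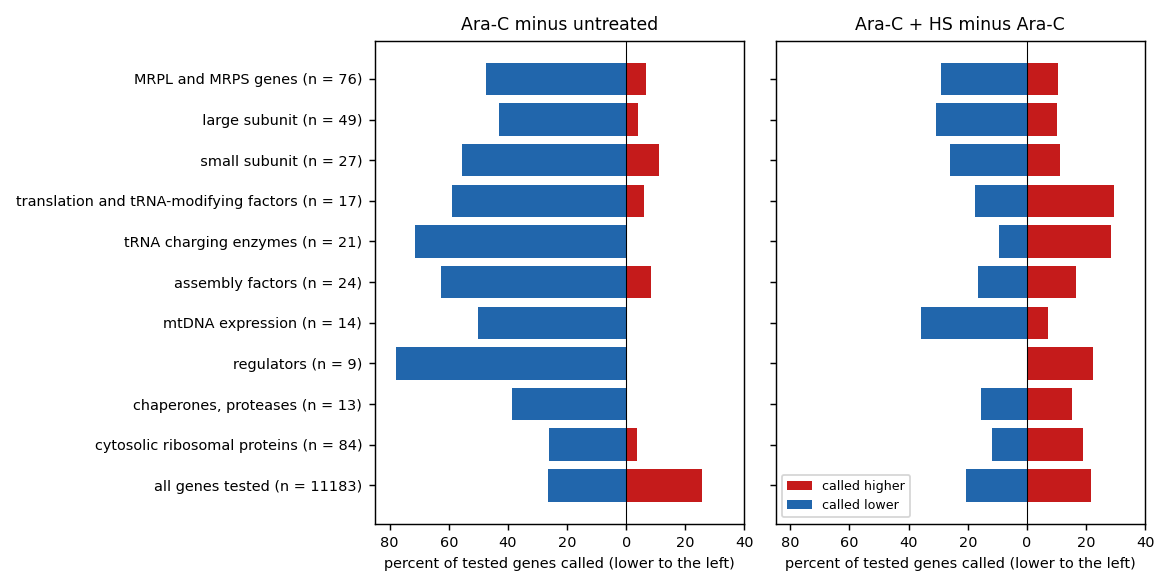
Percent of tested genes called lower (bars to the left) and higher (bars to the right) for the ribosomal genes, their subunits, related lists and all genes tested, with Ara-C alone against untreated cells (left) and Ara-C with HS against Ara-C alone (right). With Ara-C alone 47.4% of the ribosomal genes and 71.4% of the tRNA charging enzymes are called lower, beside 26.3% of all genes. With arrays shifted to a common median 13 ribosomal genes were called lower with Ara-C alone and 15 higher, where 1259 of all genes were called lower and 4067 higher.

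The second comparison asked how HS stroma changed the genes under Ara-C. With Ara-C and HS, 22 of the 76 genes were lower than with Ara-C alone and 8 were higher, that is 28.9% and 10.5%, beside 20.5% and 21.6% of all genes. The median log2 fold change was -0.08, against 0.01 over all genes. Arrays of the groups did not overlap for 29 genes lower with HS (38.2%, against 25.6% of all genes) and 11 higher (14.5%, against 26.7%). With a common-median scaling the counts were 23 lower and 4 higher, with a median of -0.18 beside -0.06 over all genes.

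Every gene that rose with Ara-C alone was lower again with HS. MRPS6 stood at 12.45, 12.42 and 12.44 with Ara-C and HS, against 13.00, 13.07 and 13.07 with Ara-C alone, a log2 fold change of -0.61 ± 0.08 (adjusted p = 4.89e-05). MRPL52 stood at 9.47, 9.64 and 9.59, against 10.18, 10.43 and 10.28 (-0.73 ± 0.09, adjusted p = 5.06e-05), and MRPS11 at 10.20, 10.47 and 10.22, against 10.88, 10.83 and 10.91 (-0.58 ± 0.10, adjusted p = 0.00061). Their groups did not overlap, and MRPL52 and MRPS11 with HS lay in the range of untreated cells or close to it. MRPL33 was lower by a log2 fold change of -0.57 ± 0.09 (adjusted p = 0.000196). MRPS21 gave -0.30 and was called lower, but its other probe gave -0.13 and was not called (adjusted p = 0.441). Since both comparisons use the same Ara-C arrays, a high value on those arrays enters both with opposite signs, and the opposite signs are a description. How often this held over all genes was not counted.

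Of the 22 genes lower with HS, 15 had not been called with Ara-C alone, and 2, MRPL46 and MRPS17, had already fallen with it. Among the 15, another probe of MRPL20, of MRPL35 and of MRPL43 was called lower with Ara-C alone (-0.56, -0.53 and -0.29, adjusted p = 0.000792, 0.00736 and 0.0284). A further probe of MRPL35 and of MRPL43 was not called. MRPL41 stood at 9.71, 9.87 and 9.52 with Ara-C and HS, against 10.24, 10.44 and 10.53 with Ara-C alone, a log2 fold change of -0.70 ± 0.13 (1.63-fold lower, adjusted p = 0.000853). MRPS7, which helps start assembly of the small subunit, stood at 9.53, 9.37 and 9.44, against 9.98, 10.05 and 10.04 (-0.58 ± 0.10, adjusted p = 0.000367). The HS arrays lay below those of Ara-C alone for both genes, and also below the untreated ones. MRPL15 gave -0.54 ± 0.09 and MRPL20, which binds the large rRNA, -0.50 ± 0.09 (adjusted p = 0.000359 and 0.000716). The other MRPL20 probe gave -0.18 and was not called (adjusted p = 0.212).

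All 8 genes that were higher with HS were among those lower with Ara-C alone. Here too a low value on the shared Ara-C arrays enters both comparisons with opposite signs, so this is a description. The pattern was not counted over all genes. MRPL10, of the stalk, stood at 8.76, 9.11 and 8.85 with Ara-C and HS, against 8.18, 8.39 and 8.15 with Ara-C alone, a log2 fold change of 0.67 ± 0.15 (1.59-fold, adjusted p = 0.00311). MRPS25, found only in mitochondrial ribosomes, stood at 9.77, 10.12 and 10.03, against 9.43, 9.44 and 9.43 (0.54 ± 0.10, adjusted p = 0.000787). In both genes the HS arrays lay above those of Ara-C alone and within or near the untreated range. MRPS27 stood at 10.49, 10.71 and 10.58, against 9.99, 10.26 and 10.18 (0.45 ± 0.10, adjusted p = 0.00287), and MRPS35 at 11.68, 11.47 and 11.51, against 11.04, 10.98 and 11.36 (0.43 ± 0.10, adjusted p = 0.00551). Both stayed below the untreated arrays.

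Smaller rises with HS were called for MRPS30 (0.34 ± 0.10, adjusted p = 0.016), MRPL24 (0.30 ± 0.10, adjusted p = 0.0239) and MRPL23 (0.28 ± 0.09, adjusted p = 0.0241). These 3 calls each rested on few arrays. MRPL23 was not called without Ara-C array 1, HS array 1 or HS array 3, MRPL24 not without Ara-C array 1, Ara-C array 2 or HS array 3, and MRPS30 not without Ara-C array 3 or HS array 1 (adjusted p up to 0.0824, 0.0912 and 0.0732). All 3, and MRPS35 as well, were also lost under the common-median scaling (adjusted p from 0.125 to 0.295). MRPS34 stayed low, with 6.64, 6.61 and 6.77 with Ara-C and HS, against 6.76, 6.72 and 6.60 with Ara-C alone (-0.02 ± 0.15, adjusted p = 0.913).

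The remaining genes set out by the rule were not called with HS. MRPL12 gave 0.21 ± 0.10 (adjusted p = 0.11), MRPS22 0.22 ± 0.08 (adjusted p = 0.0531) and MRPL3 0.15 ± 0.10 (adjusted p = 0.226). MRPL1 gave -0.21 ± 0.09 (adjusted p = 0.0788), MRPS12 -0.31 ± 0.14 (adjusted p = 0.0994) and MRPL44 -0.12 ± 0.11 (adjusted p = 0.416). MRPL11, MRPS16 and MRPS18B lay between -0.03 and 0.09. The other MRPS12 probes were both called lower (-0.50 and -0.68, adjusted p = 0.0201 and 0.0125). The standing probe was called lower with a trended, robust variance (adjusted p = 0.0231) and with quantile normalization without background correction (adjusted p = 0.0473). The authors' values, which are nearly identical to the latter, gave the same call (adjusted p = 0.0474). Large-subunit genes were lower with HS in 15 of 49 cases and higher in 5, and small-subunit genes in 7 and 3 of 27, where 20.5% of all genes were lower and 21.6% higher. The small subunit, at 25.9% lower, was near the share of all genes.

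MRPL55, a large-subunit protein, had the largest fitted rise with HS, but its probes went in opposite directions. The probe with the highest mean, which stood for the gene, read 10.81, 10.60 and 10.94 with Ara-C and HS, against 9.82, 10.23 and 10.16 with Ara-C alone, a log2 fold change of 0.71 ± 0.13 (adjusted p = 0.000802). When every probe was tested on its own, the other probes gave -0.84 ± 0.11 and -0.64 ± 0.10 (adjusted p = 7e-05 and 0.00025). The direction for MRPL55 therefore depends on the probe, and it is counted above among the 8 rises and the 36 falls by the rule on probes alone. Over the 24 genes with several kept probes it was the only one with opposite calls, in 2 of 29 probe pairs with HS and in none with Ara-C alone. In 20 of the 29 pairs both probes had the same sign in each of these comparisons.

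**Figure D4:**
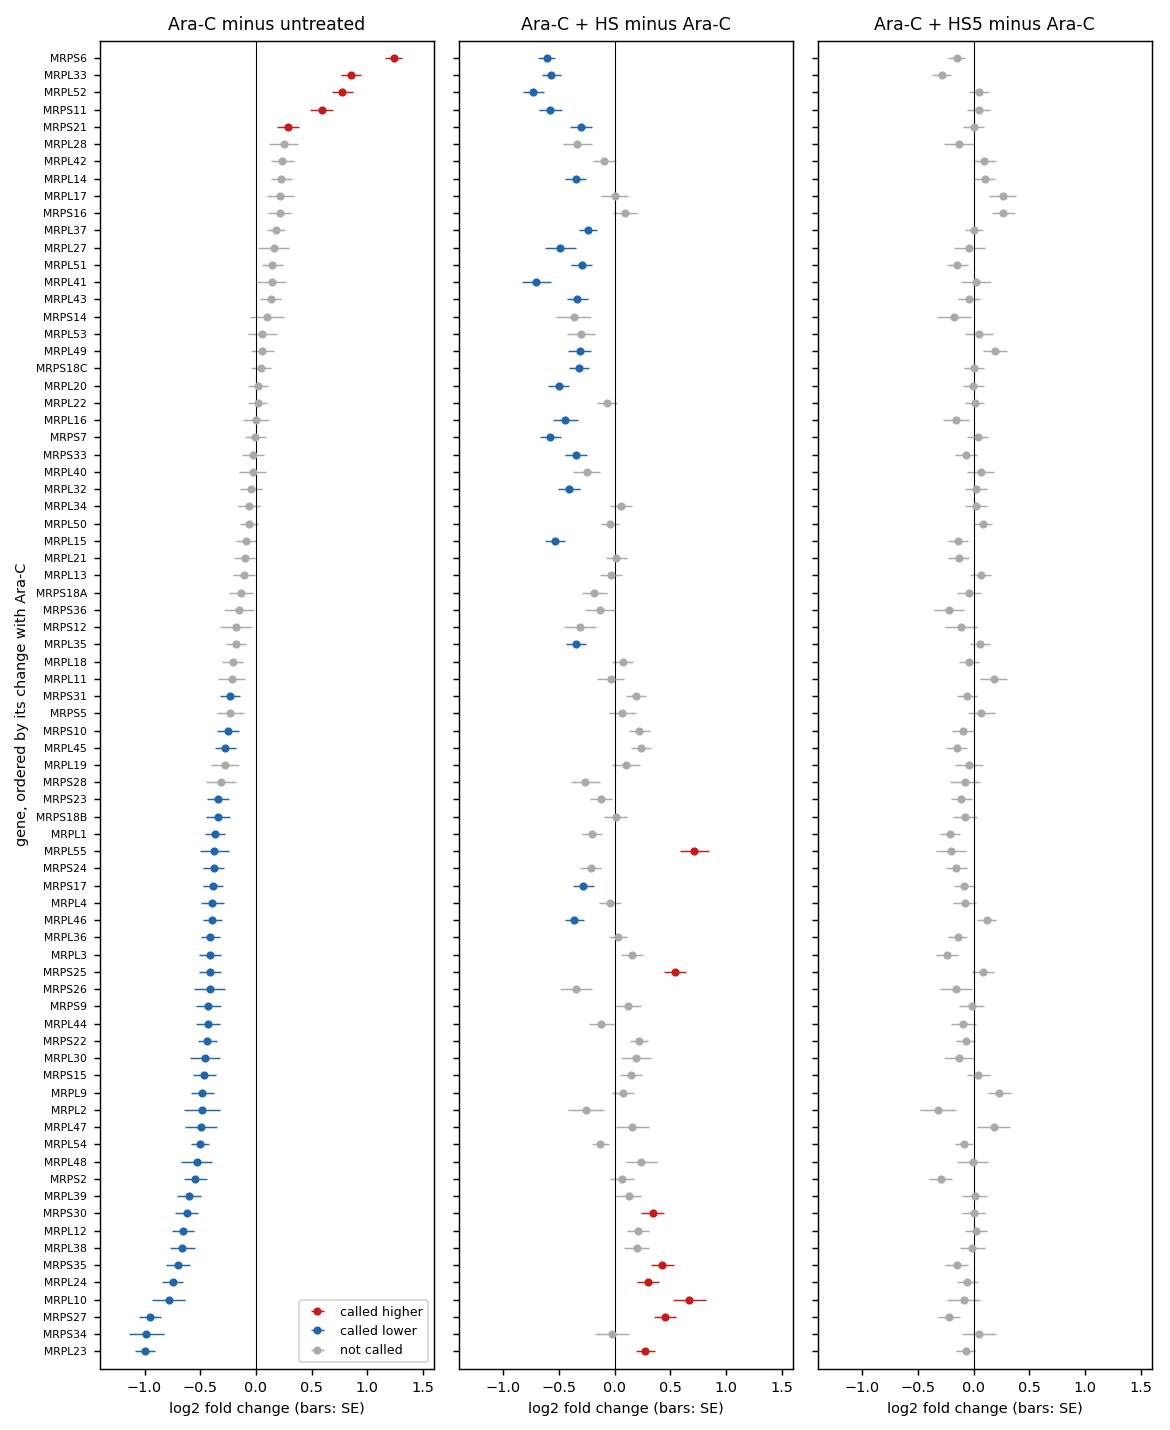
Fitted log2 fold change of each of the 76 genes (points) with its SE (bars) for Ara-C minus untreated, Ara-C with HS minus Ara-C and Ara-C with HS5 minus Ara-C. Rows keep the order of the first panel, and colour marks the call. The 5 red genes of the first panel are blue in the second, the 8 red genes of the second panel are blue in the first, and no gene is coloured in the third. The panels share the Ara-C arrays, so opposite signs are a description. With arrays shifted to a common median the first panel had 15 higher and 13 lower calls and the second 4 and 23. Over all genes there were then 4067 higher and 1259 lower calls in the first comparison and 1583 and 2411 in the second.

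With HS, the counts in the related lists stand beside 21.6% higher and 20.5% lower over all genes, and several lists were near or below these shares. Of the 21 tRNA charging enzymes 6 were higher and 2 lower, with WARS2 (tryptophan) at 0.66 ± 0.16, CARS2 at 0.49 ± 0.09 and MARS2 at 0.37 ± 0.09 (adjusted p = 0.00501, 0.000753 and 0.00648). Of 17 translation factors 5 were higher and 3 lower, the initiation factor MTIF2 at 0.69 ± 0.12 and MTFMT at -0.58 ± 0.09 among them (adjusted p = 0.000599 and 0.000154), with the elongation factor TSFM at -0.44 ± 0.11 (adjusted p = 0.00686). Of 24 assembly factors 4 were higher, including the GTPase C4orf14 at 0.80 ± 0.11, TFB1M at 0.59 ± 0.10 and the pseudouridine synthase RPUSD3 at 0.50 ± 0.09 (adjusted p = 0.00012, 0.000555 and 0.00065), and 4 were lower, 16.7% each way.

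Of the 7 proteins with other names, OXA1L and DAP3 were higher with HS, by 0.69 ± 0.09 and 0.44 ± 0.08 (adjusted p = 8.5e-05 and 0.000851), and the small-subunit protein AURKAIP1 was lower, with a log2 fold change of -0.44 ± 0.10 (adjusted p = 0.00284). Among 9 regulators 2 were higher and none lower, ESRRA and MYC, both with a log2 fold change of 0.74 (adjusted p = 0.000115 and 0.00016), with HCFC1 at -0.18 ± 0.08 (adjusted p = 0.0916). Of 14 genes for mitochondrial DNA expression 1 was higher, POLG2 at 0.47 ± 0.13 (adjusted p = 0.0103), and 5 were lower, with HSD17B10, a subunit of mitochondrial RNase P, at -0.68 ± 0.12 and its partner RG9MTD1 at -0.40 ± 0.11 (adjusted p = 0.00055 and 0.0097). Cytosolic ribosomal proteins were higher in 16 of 84 cases and lower in 10, with RPS27L at -0.85 ± 0.07, RPL34 at -0.83 ± 0.09 and RPL29 at -0.86 ± 0.11 (adjusted p = 2.14e-06, 1.94e-05 and 5.53e-05).

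The third comparison asked the same of HS5 stroma. With Ara-C and HS5 none of the 76 genes was called against Ara-C alone, where 0.528% of all genes were called higher and 0.376% lower. At an unadjusted p under 0.05, 7 of the 76 genes and 13.5% of all genes differed (limma). The smallest adjusted p was that of MRPL33, which stood at 12.35, 12.24 and 12.44 with Ara-C and HS5, against 12.59, 12.68 and 12.60 with Ara-C alone (-0.29 ± 0.09, adjusted p = 0.161). MRPS6 gave -0.15 ± 0.08 (adjusted p = 0.439), with 12.84, 12.88 and 12.97 against 13.00, 13.07 and 13.07. For both genes the groups did not overlap, which held for 10 members lower (13.2%, against 10% of all genes) and 5 higher (6.58%, against 9.58%).

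Fitted changes with HS5 lay between -0.32 and 0.27 over the 76 genes, with a median of -0.04 beside -0.00 over all genes. The 95% interval of a single gene reached at most 0.37 to either side of its value, which is the widest interval among the members. MRPL23 stood at 9.93, 10.02 and 10.15 with Ara-C and HS5, against 10.04, 10.14 and 10.14 with Ara-C alone, and MRPS27 at 10.01, 9.80 and 9.96, against 9.99, 10.26 and 10.18. Both pairs of groups overlapped, with log2 fold changes of -0.07 ± 0.09 and -0.22 ± 0.10 (adjusted p = 0.787 and 0.363). None of the related lists had a called gene, and the closest were ELAC2, which trims tRNA ends, at -0.34 ± 0.08 (adjusted p = 0.0889) and ICT1 at -0.44 ± 0.11 (adjusted p = 0.0964).

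Whether the stromas differed was tested directly, as Ara-C with HS5 against Ara-C with HS. Of the 76 genes 21 were higher with HS5 and 14 lower, that is 27.6% and 18.4%, where 20.9% and 22.3% of all genes were called. Under the common-median scaling 15 were higher and 9 lower, where 1791 of all 11183 genes were called higher and 2365 lower. MRPL52 stood at 10.36, 10.26 and 10.43 with HS5, against 9.47, 9.64 and 9.59 with HS, a log2 fold change of 0.78 ± 0.09 (1.72-fold, adjusted p = 2.59e-05). MRPL41 stood at 10.32, 10.27 and 10.69, against 9.71, 9.87 and 9.52 (0.73 ± 0.13, adjusted p = 0.000615). Neither gene's groups overlapped. MRPS11 and MRPS7 were higher with HS5 by 0.62 ± 0.10 each (adjusted p = 0.000299 and 0.000201), and MRPS6 by 0.46 ± 0.08 (adjusted p = 0.000379).

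The genes lower with HS5 than with HS were led by MRPL55, at -0.91 ± 0.13 (adjusted p = 0.000108), but its other probes gave 0.66 and 0.65 in the same comparison. MRPL10 stood at 7.99, 8.44 and 8.02 with HS5, against 8.76, 9.11 and 8.85 with HS (-0.76 ± 0.15, adjusted p = 0.00125), and MRPS27 at 10.01, 9.80 and 9.96, against 10.49, 10.71 and 10.58 (-0.67 ± 0.10, adjusted p = 0.000147). MRPS35 stood at 10.99, 10.95 and 10.99, against 11.68, 11.47 and 11.51 (-0.58 ± 0.10, adjusted p = 0.000657). The groups did not overlap for these 3 genes, as for 17 members lower with HS5 in all (22.4%, against 26.5% of all genes) and 24 higher (31.6%, against 25.1%). MRPL3 (-0.39 ± 0.10, adjusted p = 0.00617), MRPS30 (-0.34 ± 0.10, adjusted p = 0.0155) and MRPS22 (-0.29 ± 0.08, adjusted p = 0.014) were also lower, but lost their calls under the common-median scaling (adjusted p = 0.0562, 0.084 and 0.0941), MRPS30 also without HS array 1 or HS5 array 1 and MRPS22 without HS5 array 2 (adjusted p up to 0.0714 and 0.0602). The other MRPL3 probe gave 0.02 (adjusted p = 0.887).

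MRPL12 and MRPL11 of the stalk gave -0.19 ± 0.10 and 0.22 ± 0.12 between the stromas (adjusted p = 0.153 and 0.165). MRPL1, MRPL44 and MRPS34 lay between -0.00 and 0.07, and MRPS12, MRPS16 and MRPS18B gave 0.19, 0.18 and -0.08, none of them called (adjusted p from 0.199 to 0.989).

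The comparison of Ara-C alone with untreated cells and that of HS5 with HS under Ara-C use no array in common, although all arrays share the chip and the normalization. Across the 76 genes their log2 fold changes correlated at Pearson's 0.69 and Spearman's 0.75, and across all 11183 genes at 0.59 and 0.53. Genes are not independent replicates, and these values describe the arrays without a test. All 5 genes higher with Ara-C alone were higher with HS5 than with HS. Of the 36 lower with Ara-C alone, 14 were lower with HS5 than with HS and 1, MRPL46, was higher. Of the 35 not called with Ara-C alone 15 were higher and none lower. Over all genes 20.9% were higher and 22.3% lower with HS5 than with HS. The same cross-counts were not made over all genes, so they do not set these genes apart from the rest of the array.

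**Figure D5:**
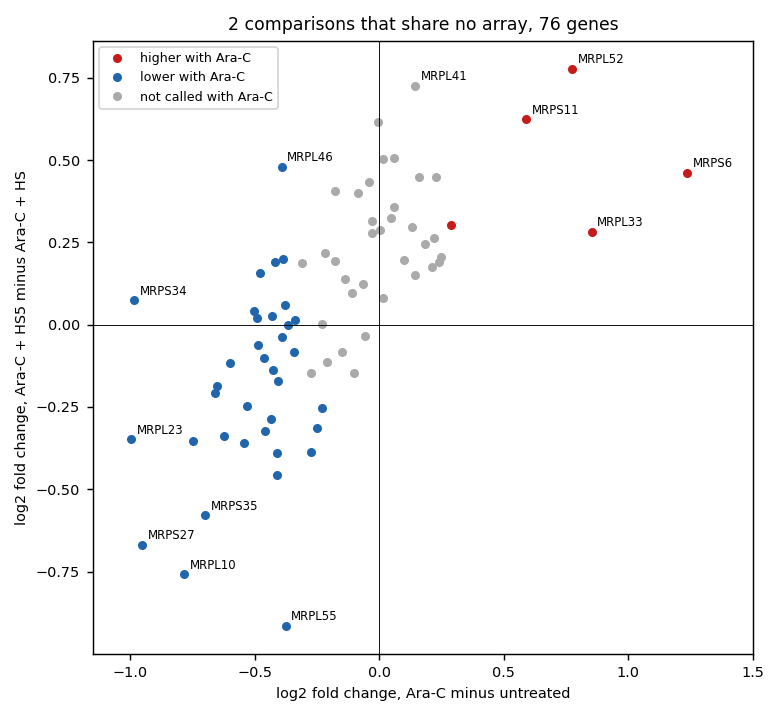
Each point is 1 of the 76 genes, with the log2 fold change of Ara-C minus untreated on the horizontal axis and of Ara-C with HS5 minus Ara-C with HS on the vertical axis. Colour gives the call with Ara-C alone. The 5 red genes lie above 0 on the vertical axis, MRPL10, MRPS27 and MRPS35 lie low on both axes, and MRPS34 lies far left at 0.07.

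With both Ara-C and HS, 39 genes were lower than in untreated cells and 3 higher, 51.3% and 3.95% of the 76, beside 21.8% and 23.3% of all genes, and the median was -0.28 beside -0.01. Under the common-median scaling 24 were lower and 3 higher, with the median at -0.21 beside 0.13 over all genes. Of all 11183 genes 1077 were then called lower and 3296 higher. MRPS34 stood at 6.64, 6.61 and 6.77 with Ara-C and HS, against 7.45, 7.88 and 7.70 in untreated cells (-1.01 ± 0.15, adjusted p = 0.00018). MRPL46, found only in mitochondrial ribosomes, stood at 10.15, 10.03 and 10.01, against 10.85, 10.70 and 10.91 (-0.75 ± 0.09, adjusted p = 1.8e-05). Neither gene's groups overlapped, and 47 members (61.8%, against 27% of all genes) had no overlap with lower values under HS, 5 (6.58%, against 27%) with higher ones. MRPS26 and MRPL2 fell by 0.76 ± 0.14 and 0.74 ± 0.16 (adjusted p = 0.000723 and 0.00217).

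Of the 3 genes higher with Ara-C and HS than in untreated cells, MRPS6 stood at 12.45, 12.42 and 12.44 against 11.85, 11.77 and 11.81 (0.63 ± 0.08, adjusted p = 3.44e-05). MRPS16 gave 0.31 ± 0.11 and MRPL33 0.29 ± 0.09 (adjusted p = 0.0302 and 0.0166). The MRPL33 call was lost without untreated array 2 and under the common-median scaling (adjusted p = 0.0702 and 0.0768). The other MRPL33 probe gave 0.71 and was called higher (adjusted p = 0.000381). The MRPS16 call was lost without untreated array 1 or 3 or HS array 2 or 3 (adjusted p up to 0.12). It was also lost without a filter on dim probes and in a fit of these 2 groups alone (adjusted p = 0.0549 and 0.0608).

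MRPL1 (-0.57 ± 0.09), MRPL41 (-0.56 ± 0.13), MRPL44 (-0.55 ± 0.11) and MRPL12 (-0.44 ± 0.10) were lower with Ara-C and HS than in untreated cells (adjusted p = 0.00021, 0.00365, 0.0015 and 0.00305), MRPL12 not under the common-median scaling (adjusted p = 0.07). MRPS12 (-0.49 ± 0.14, adjusted p = 0.0141), MRPS18B (-0.33 ± 0.10, adjusted p = 0.0198), MRPS30 (-0.28 ± 0.10, adjusted p = 0.0372), MRPL3 (-0.25 ± 0.10, adjusted p = 0.0496) and MRPS22 (-0.22 ± 0.08, adjusted p = 0.0486) lay near the threshold. Each of these 5 lost its call under the common-median scaling. MRPL3 and MRPS22 also lost it when any of 10 of the 12 arrays was left out, MRPS30 without any untreated array or HS array 2 or 3, MRPS18B without untreated array 3 or HS array 2 or 3, and MRPS12 without untreated array 3 or HS array 1. The other probes of MRPL3 (-0.32, adjusted p = 0.0168), MRPS18B (-0.39, adjusted p = 0.0244) and MRPS12 (-0.73 and -0.84, adjusted p = 0.00224 and 0.00322) were all called lower. MRPL10 and MRPL11 gave -0.11 ± 0.15 and -0.25 ± 0.12 (adjusted p = 0.565 and 0.104), and another MRPL11 probe was called lower (-0.28, adjusted p = 0.0378).

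With both Ara-C and HS5, 40 genes were lower than in untreated cells and 9 higher, 52.6% and 11.8% of the 76, beside 28.6% and 27.5% of all genes, with a median of -0.28 beside -0.02. The common-median scaling gave 29 lower and 10 higher, with a median of -0.20 beside 0.09. Of all 11183 genes 2123 were then called lower and 3502 higher. MRPS27 stood at 10.01, 9.80 and 9.96 with Ara-C and HS5, against 11.13, 11.04 and 11.12 in untreated cells (-1.17 ± 0.10, 2.25-fold lower, adjusted p = 6.2e-07), and MRPL23 gave -1.07 ± 0.09 (2.1-fold lower, adjusted p = 5.23e-07). MRPS6 was the largest rise, with 12.84, 12.88 and 12.97 against 11.85, 11.77 and 11.81 (1.09 ± 0.08, 2.12-fold, adjusted p = 1.2e-07). These 3 genes passed 2-fold and their groups did not overlap, as held for 42 members lower (55.3%, against 32.3% of all genes) and 11 higher (14.5%, against 30.5%).

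Further rises with Ara-C and HS5 over untreated cells were those of MRPL52 (0.82 ± 0.09), MRPS11 (0.64 ± 0.10), MRPL33 (0.57 ± 0.09) and MRPS16 (0.48 ± 0.11), with adjusted p = 8.13e-06, 0.000157, 0.000104 and 0.00164. MRPS34 fell by 0.93 ± 0.15 and MRPL10 by 0.87 ± 0.15 (adjusted p = 0.000197 and 0.000275). MRPL3, MRPL12, MRPS30, MRPL1, MRPL44, MRPS22 and MRPS18B fell by 0.42 to 0.64 (adjusted p from 0.000106 to 0.00419), MRPS18B not under the common-median scaling (adjusted p = 0.0588). MRPL11, MRPL41 and MRPS12 were not called (-0.04 ± 0.12, 0.17 ± 0.13 and -0.29 ± 0.14). For MRPL55 the probe standing for the gene gave -0.58 and another probe 0.25 (adjusted p = 0.0449).

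Over the whole design 26 of the 76 genes were lower than in untreated cells in all 3 Ara-C groups, among them MRPL12, MRPL23, MRPL24, MRPS27, MRPS34 and MRPS35. These are 34.2% of the members, against 11.7% of all genes. MRPL33 and MRPS6 were higher in all 3 (2.63%, against 14% of all genes). All these comparisons share the untreated arrays. In 15 genes (19.7%, against 26.9% of all genes) no Ara-C group was called against untreated cells, and 8 (10.5%, against 22%) were called in none of the 6 comparisons: MRPL11, MRPL13, MRPL22, MRPL28, MRPL34, MRPL50, MRPS5 and MRPS14.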

How the data were processed

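RNA of 12 cultures in 4 groups of 3 was measured on Illumina HumanHT-12 v3 arrays. Each deposited scanner table holds the average bead intensity of every probe, not normalized, and its detection p-value, both named so per the file headers. The table of log2 values from the authors was reached, to 0.000167, by quantile-normalizing these intensities with no background step. The submitters' processing notes name R 2.9.2.

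Signals were background-corrected, quantile-normalized and log2-transformed by the neqc function (limma 3.58.1, R 4.3.3, offset 16). A probe entered if 3 or more of the 12 arrays had a detection p under 0.01. Each gene symbol was represented by its brightest remaining probe. One lmFit and eBayes model with a mean per group was fitted to all 12 arrays (residual degrees of freedom, 8), with 6 contrasts, each tested on both sides. Benjamini-Hochberg adjustment ran over all 11183 genes, and a gene was called when its adjusted p was under 0.05. The fit was also run on simulated normalized values with independent noise for each gene, which does not test the scaling between arrays. Errors are SD for levels and SE for log2 fold changes. Precision is limited by how few arrays each group has.

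The rule for named genes took the 8 called members with the largest rise and the 8 with the largest fall in each main contrast, and 4 of each in the others. It added 13 set members, members whose probes were called in opposite directions, and up to 3 genes of each related list by smallest adjusted p. Members and lists were chosen with earlier results of these data known. The alternatives were another background correction, another scaling, other filters, every probe on its own, the authors' values, 2-group fits, another variance model, a replicate block and leaving out each array.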

Additional observations from a re-analysis of the deposited data

Results flagged for a closer look

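A total of 21 ribosomal genes were higher and 14 lower with Ara-C and HS5 than with Ara-C and HS, which is a test of whether the 2 stromas had different effects under Ara-C. These are 27.6% and 18.4% of the members, where 20.9% of all genes were higher and 22.3% lower. With arrays shifted to a common median, 15 members were higher and 9 lower, where 1791 of all genes were called higher and 2365 lower. The differences of the HS5 and HS effects, on the log2 scale, were 0.778 for MRPL52, 0.727 for MRPL41, 0.625 for MRPS11 and 0.617 for MRPS7, and they were -0.915 for MRPL55, -0.758 for MRPL10, -0.669 for MRPS27 and -0.579 for MRPS35. The value of MRPL55 belongs to 1 of its 3 probes, and the others had the opposite sign. Groups of 3 arrays were too small to look for single arrays that stand apart.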

How the results depend on the processing

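With arrays shifted to a common median in place of quantile normalization, the genes called with Ara-C alone were 15 higher and 13 lower (median -0.046). The same scaling gave 4 higher with HS over Ara-C alone (median -0.18), a median of -0.15 with HS5 over Ara-C alone, 9 lower with HS5 than with HS, 24 lower with Ara-C and HS than in untreated cells (median -0.21) and a median of -0.20 with Ara-C and HS5 against untreated cells. The counts over all genes under this scaling stand beside each of these counts above. With every kept probe on its own, 8 of 105 probes were called higher with Ara-C alone and 14 with Ara-C and HS5 against untreated cells. A trended, robust variance gave 8 genes higher with Ara-C alone. Leaving out each array in turn gave medians of -0.28 to -0.21 for Ara-C alone, the lowest without Ara-C array 2, 30 to 36 genes lower and 5 higher. It kept the calls of 28 of the 36 falls and 4 of the 5 rises with Ara-C alone under every omission, and with HS those of 15 of 22 falls and 5 of 8 rises. Read on the probe that stands for the gene, no called change of a named gene reversed among 2499 values over all alternatives, but the other MRPL55 probes were called in the opposite direction with HS over Ara-C alone and with HS5 over HS, and 1 of them with Ara-C and HS5 against untreated cells. Other filters, every probe on its own, 2-group fits, the other variance model and the replicate block leave the fitted change itself unaltered. No sign could reverse under these. Of the 2499 values 2398 kept their side of the threshold, 38 of them uncalled with a change of sign, 83 lost a call and 18 gained one. The authors' values nearly equal the quantile normalization without background correction, so these alternatives are not independent and both enter the count. Same-numbered replicates of different groups did not deviate together (18 correlations from -0.046 to 0.025). With the replicate number as a block, 35 genes were lower and 5 higher with Ara-C alone, and 22 lower and 8 higher with HS. The probe-wise, variance, leave-one-out and block counts are given without the share over all genes. They do not set the members apart from the rest of the array. The block also ended the calls of MRPL3, MRPS30 and MRPS22 with Ara-C and HS against untreated cells (limma, adjusted p = 0.0683, 0.0532 and 0.0625). The cause of these shifts was not tested. The array number and signal over background limit small changes, and 9 of the 114 probes were too dim to keep.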

Other observations

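Chaperones and proteases of mitochondria, which fold imported proteins and clear damaged ones, were measured beside the ribosomal genes. Of 13 genes tested 5 were lower with Ara-C alone than in untreated cells and none was higher, where 26.3% of all genes were lower and 25.5% higher. The chaperone TRAP1 fell by 1.18 ± 0.12, the protease LONP1 by 0.96 ± 0.08 and the import chaperone HSPA9 by 0.61 ± 0.11 on the log2 scale (limma, adjusted p = 2.56e-06, 8.16e-07 and 0.000428). With Ara-C and HS, 2 were higher than with Ara-C alone and 2 lower, 15.4% each, where 21.6% of all genes were higher and 20.5% lower. The prohibitin PHB2 gave 0.58 ± 0.12 and its partner PHB -0.47 ± 0.09, and the co-chaperonin HSPE1 gave -0.62 ± 0.10 (adjusted p = 0.00195, 0.00125 and 0.000306). With Ara-C and HS5 none was called, and LONP1 gave 0.22 ± 0.08, YME1L1 -0.29 ± 0.11 and GRPEL1 -0.24 ± 0.10 (adjusted p = 0.274, 0.255 and 0.318).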
